A study of Mus musculus with 6 samples.

Results

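The 35 genes described here encode the oxidant sensor and transcription factor pair KEAP1 and NRF2, partners and repressors of NRF2, and the enzymes that remove peroxides, superoxide and oxidised thiols. They were chosen by name, from knowledge of the pathway, and all 35 of them were found among the 16519 genes of the deposited table and passed the filter on low counts. No measured value entered the rule, although earlier results on these libraries were known when the names were set down. Counts were compared between 3 libraries of TRMT61A-KO and 3 libraries of TRMT61A-WT bone marrow derived macrophages (BMDMs), macrophages grown in culture from mouse marrow. Both genotypes carried floxed Trmt61a alleles (Trmt61a f/f), and the KO mice in addition carried LysmCre, a Cre recombinase driven from the lysozyme gene Lyz2 in myeloid cells. The WT mice had no Cre, so that loss of Trmt61a and presence of Cre cannot be told apart. The sources used here state neither age, sex, culture time nor any stimulus. They also do not say whether replicate libraries were grown from separate mice, so p-values reflect the spread of these libraries only, and that spread may be technical.

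NRF2, the product of Nfe2l2, is held in the cytosol by KEAP1 and degraded. When oxidants or electrophiles modify KEAP1, NRF2 enters the nucleus, pairs with a small MAF protein and activates genes for glutathione synthesis, thioredoxin recycling and detoxification from sites called antioxidant response elements. BACH1 competes for the same sites, and the autophagy receptor p62, encoded by Sqstm1, can sequester KEAP1. In macrophages these enzymes limit the damage from the oxidants that the cells make to kill microbes. Several of the enzymes are selenoproteins, whose selenocysteine is delivered by a dedicated tRNA that is itself among the tRNAs known to carry N1-methyladenosine (m1A), the mark that TRMT61A and its partner TRMT6 write.

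The libraries labelled KO had little Trmt61a, with 0.530, 0.755 and 0.539 counts-per-million (CPM) in KO 1 to KO 3 and 4.96, 3.89 and 5.06 CPM in WT 1 to WT 3, or 13.1% of WT (log2 fold change -2.92, edgeR adjusted p = 0.00219). Each library held between 37021855 and 41033179 gene counts. All 12 macrophage markers of the list, led by Csf1r and Adgre1, were counted in every library, and their summed level ran from 14933 to 16859 CPM in KO and from 15199 to 16433 CPM in WT. The summed cell cycle markers ran from 331 CPM in KO 1 and 336 CPM in WT 2 up to 578 CPM in both KO 3 and WT 3, and the neutrophil markers from 1737 CPM in KO 1 and 1750 CPM in WT 2 to 3193 CPM in WT 3. KO 1 and WT 2 thus stood at one end of both lists, in opposite genotypes. Summed markers of dendritic cells were at most 4.60 CPM and those of lymphocytes at most 5.06 CPM. Summed mast cell, basophil and eosinophil markers ran from 24.6 to 60.0 CPM and stromal markers from 124 to 269 CPM, with overlap of these sums between the genotypes. Of 8 tested stromal markers 6 had log2 fold changes above 0 and 2 below. Among them Cxcl12 was at 22.4, 31.6 and 29.3 CPM in KO and at 20.4, 20.8 and 22.1 CPM in WT, without overlap. Its log2 fold change was 0.40 (edgeR adjusted p = 0.999949), and Col1a1 and Col1a2 had 0.42 and 0.51 with overlap. Erythroid and megakaryocyte markers differed in their sum, at 170 to 197 CPM in KO and 150 to 155 CPM in WT, and the platelet gene Pf4 made up most of it at a mean of 126 CPM. Pf4, Ppbp and Itga2b had log2 fold changes of 0.21, 0.64 and 0.30 (edgeR adjusted p = 0.999949 for each). Every KO library exceeded every WT library for Pf4, whereas the genotypes overlapped for Ppbp and Itga2b. Hba-a1, Hba-a2, Alas2 and Klf1 had between 6 and 17 counts over all 6 libraries together, Hbb-bt had 25, Hbb-bs 99 and Gata1 302. The log2 fold change was 0.98 for Hbb-bs and -0.13 for Gata1. In bulk RNA, fewer cells of a type and less RNA per cell cannot be told apart. The part of these other cells in the results below was not tested.

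No antioxidant gene differed between the genotypes past the threshold, and most stood a few percent higher in KO. In the edgeR quasi-likelihood test 0 of the 35 genes had a Benjamini-Hochberg adjusted p under 0.05, against 4 of all 12605 genes tested, or 0.0317%. DESeq2 called 0 of the 35 beside 0.127% of all genes, and limma voom 0 of the 35 beside 0.0317%. At an unadjusted p under 0.05 edgeR gave 3 of the 35 genes (8.57%), all with higher values in KO, against 3.1% of all tested genes in either direction and 1.46% with higher values in KO. DESeq2 also gave 3 and limma voom 2 at that level. The log2 fold change of KO minus WT lay above 0 for 30 genes and below 0 for 5, that is 85.7% above 0 where all tested genes had 50%. Its median over the 35 genes was 0.06, against 8.37e-05 over all tested genes. These shares are a description, as the 35 genes can move together by library and are not independent units. KO 1 stood above a gene's own mean over all libraries for 24 of the 35 genes, and WT 2 for 12. A slight upward shift of oxidative stress genes in these libraries was also known before the list was set. The shares are therefore no independent support for a rise of the pathway.

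The KO and WT libraries did not overlap for 5 of the 35 genes (14.3%), where this held for 8.65% of all tested genes. All 5 were higher in KO, a direction that 4.05% of all tested genes showed. They were Esd, Txn2, Prdx5, Txnrd1 and Msrb1. The limits given above for the shares hold here too. The sizes involved were small. The 95% interval of the difference stayed within 1.5-fold in either direction for 33 of the 35 genes (94.3%), against 72.4% of all tested genes and 96.1% of the 8443 whose mean was 10 CPM or more. The exceptions were Maff and Nqo1, the only members with a mean under 10 CPM. Without KO 1 the number of genes above 0 dropped to 23, and without KO 1 and WT 2 together it was 25.

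**Figure D1:**
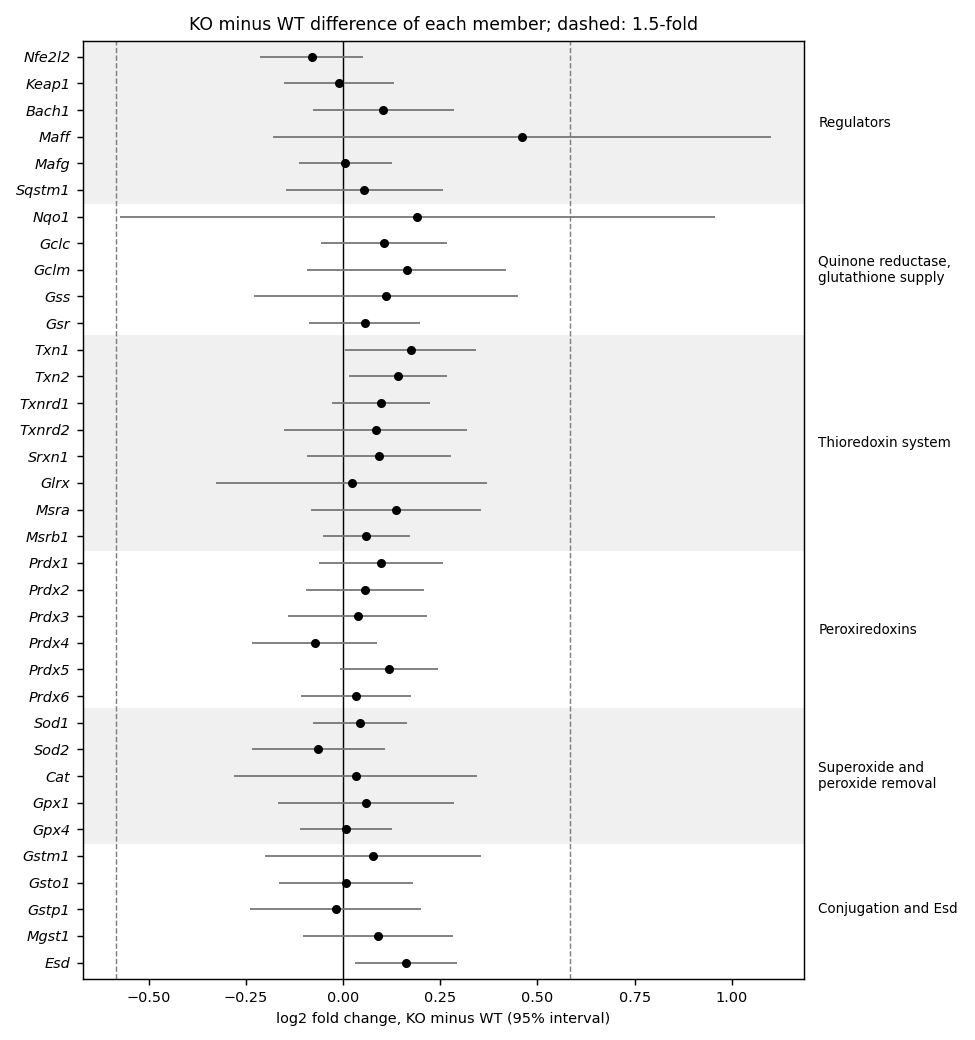
Log2 fold change (KO minus WT, horizontal axis) of each of the 35 genes, grouped by role, with points for the edgeR estimate and bars for its 95% interval. The dashed lines mark 1.5-fold; the intervals of Maff and Nqo1 cross one of them and the other 33 stay inside.

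Promoter sequence was examined for the element that NRF2 and small MAF proteins bind. RefSeq windows of GRCm38.p6, from 250 bases before to 50 bases after each start site, matched 31 of the 35 genes with 41 windows, and Gclc, Gsr, Msra and Prdx6 were not analysed here. The core TGACNNNGC, on either strand, was present in 9 of the 41 windows (22.0%) and in 12.4% of all 32851 windows. A second form of the same length, TGANTCAGC, which can overlap the core and leaves fewer positions free, was present in 3 of the 41 windows (7.32%) and in 1.19% of all windows. Those 3 windows belong to Srxn1, Prdx1 and Gstp1, and are shown because they hold the form that leaves fewer positions free. Counted by gene, the core was present for 9 of the 31 members and for 17.1% of the tested genes with a window. The second form was present for 3 of the 31 and for 1.30%. The members were chosen as genes of this pathway, so a share above that of all genes is no independent result. A match is a run of letters and not a measured binding site, and it does not tell which factor binds. The 250 bases before the start site are printed on the gene's strand, with the match in capitals.
Srxn1 (chr2:152105274-152105523, plus strand): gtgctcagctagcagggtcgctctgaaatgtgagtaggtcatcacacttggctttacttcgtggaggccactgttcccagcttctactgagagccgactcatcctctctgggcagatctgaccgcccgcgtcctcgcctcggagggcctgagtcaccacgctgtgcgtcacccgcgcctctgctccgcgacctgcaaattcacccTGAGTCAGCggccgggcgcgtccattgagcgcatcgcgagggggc
Prdx1 (chr4:116685349-116685598, plus strand): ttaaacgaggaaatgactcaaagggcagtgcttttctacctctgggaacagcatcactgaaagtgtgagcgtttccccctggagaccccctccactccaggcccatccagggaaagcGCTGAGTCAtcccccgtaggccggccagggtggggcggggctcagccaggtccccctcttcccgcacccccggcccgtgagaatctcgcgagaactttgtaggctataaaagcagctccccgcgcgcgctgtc
Gstp1 (chr19:4037913-4038162, minus strand): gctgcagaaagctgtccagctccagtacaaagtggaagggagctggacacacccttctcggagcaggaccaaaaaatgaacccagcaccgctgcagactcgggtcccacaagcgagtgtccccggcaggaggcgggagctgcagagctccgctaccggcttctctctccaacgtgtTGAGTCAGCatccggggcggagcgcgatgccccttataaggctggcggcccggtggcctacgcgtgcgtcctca

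Matches to the core upstream of other members are shown with their flanks, because the bases around a shared core differ between genes. Each is written on the strand that carries the motif, with the motif in capitals.
Gclm: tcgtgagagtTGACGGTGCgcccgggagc
Txnrd1: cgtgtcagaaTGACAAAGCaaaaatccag
Nfe2l2: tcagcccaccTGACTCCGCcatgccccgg
Maff: gggcgtctcaTGACTCTGCcactggaaag
Mafg: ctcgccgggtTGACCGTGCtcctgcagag
Mgst1: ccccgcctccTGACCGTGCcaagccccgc
Sod1: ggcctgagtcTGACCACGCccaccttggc

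Among these, only the Mafg and Mgst1 cores are spelled alike. The 10 genes with a match to either motif had log2 fold changes from -0.08 (Nfe2l2) to 0.46 (Maff), with a median of 0.09 and 8 above 0. The 21 genes whose windows held no match had a median of 0.06 and 18 above 0, from -0.07 to 0.19. Neither set held a gene that passed the threshold. Srxn1 and Prdx1, whose windows match both motifs, had 0.09 and 0.10. In Prdx1 both matches are the same bases. In Srxn1 the core match begins at base 29 after the start site, outside the printed sequence.

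Among the regulators, 4 of 6 had log2 fold changes above 0 and none passed. Nfe2l2 itself (chromosome 2, 75675513 to 75704663, mm10) stood at 419, 414 and 391.8 CPM in KO 1 to KO 3 and at 430, 456 and 409 CPM in WT 1 to WT 3. Its values overlapped between genotypes and KO lay at 94.5% of WT, the lowest share of the 35 genes (log2 fold change -0.08, 95% interval -0.21 to 0.05, edgeR adjusted p = 0.999949). Over 16 alternative analyses this difference kept its direction, from -0.12 to -0.04. Keap1, the adaptor that hands NRF2 to a ubiquitin ligase, was at 62.5, 62.0 and 61.1 CPM in KO and at 65.4, 58.3 and 63.2 CPM in WT. The KO values of Keap1 lay inside the WT range, and its log2 fold change was -0.01.

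Bach1, the repressor that competes with NRF2, was at 216, 186 and 184 CPM in KO and at 168, 200 and 177 CPM in WT. KO 1 was the highest library and the genotypes overlapped (log2 fold change 0.10, 95% interval -0.08 to 0.28). Of the small MAF partners, Mafg was even across libraries, with 117 ± 1.70 CPM for KO and 117 ± 4.26 CPM for WT (SD, n = 3). Maff was scarce and variable. It was at 2.31, 4.08 and 3.33 CPM in KO and at 1.87, 2.16 and 3.02 CPM in WT, with at least 69 counts in each library. KO 2 had the highest value and WT 1 the lowest, and KO 1 lay below WT 3 (log2 fold change 0.46, standard error 0.29, edgeR adjusted p = 0.999949).

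Sqstm1, which encodes p62, was among the most abundant members at 714, 642 and 606 CPM in KO and 666, 675 and 547 CPM in WT. The spread within a genotype exceeded the difference between genotypes (log2 fold change 0.05). Without KO 1 its sign changed to -0.01. Expressed per kb of merged exons, Nfe2l2 stood at 4.98 ± 0.352 times the level of Bach1 in KO and at 5.65 ± 0.353 times in WT (SD, n = 3). All 3 KO ratios were below all 3 WT ratios. The two-sided exact permutation test gave p = 0.1, the smallest value possible with 3 against 3 libraries, and 0.7 after adjustment over 7 such ratios. The ratio of Nfe2l2 to Keap1 overlapped between genotypes (exact permutation p = 0.8, adjusted 0.9).

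Genes of quinone reduction and glutathione supply all had log2 fold changes above 0, and none passed. Nqo1, a quinone reductase often used as a readout of NRF2, was the least abundant member per length, with 2.44, 1.64 and 1.32 CPM in KO and 2.03, 1.33 and 1.36 CPM in WT. Its genotypes overlapped fully, with KO libraries at both extremes, and at 53 counts in the lowest library the 95% interval ran from -0.57 to 0.96. Gclc encodes the catalytic subunit of the ligase that limits glutathione synthesis. It was at 48.8, 45.0 and 44.0 CPM in KO and 45.0, 40.2 and 42.8 CPM in WT, a narrow overlap (log2 fold change 0.11, 95% interval -0.06 to 0.27).

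Gclm, the modifier subunit of the same ligase and the bearer of a core match in its promoter, was at 78.6, 64.7 and 60.0 CPM in KO and 65.2, 63.4 and 52.9 CPM in WT. KO 1 alone stood above every WT library. The log2 fold change, 0.16 (standard error 0.11), became 0.04 without KO 1. The 2 subunits were at a similar level per length, with a Gclc to Gclm ratio of 1.12 ± 0.0927 in KO and 1.16 ± 0.146 in WT (SD, n = 3). Gss, glutathione synthetase, and Gsr, which regenerates reduced glutathione, had log2 fold changes of 0.11 and 0.06. The Gss value depended on WT 1, the highest library for that gene at 14.7 CPM, and the other WT libraries were the lowest at 10.4 and 9.84 CPM. Gclm, Gss and Gsr overlap other RefSeq genes, and reads of such neighbours cannot be separated without the strand setting.

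**Figure D2:**
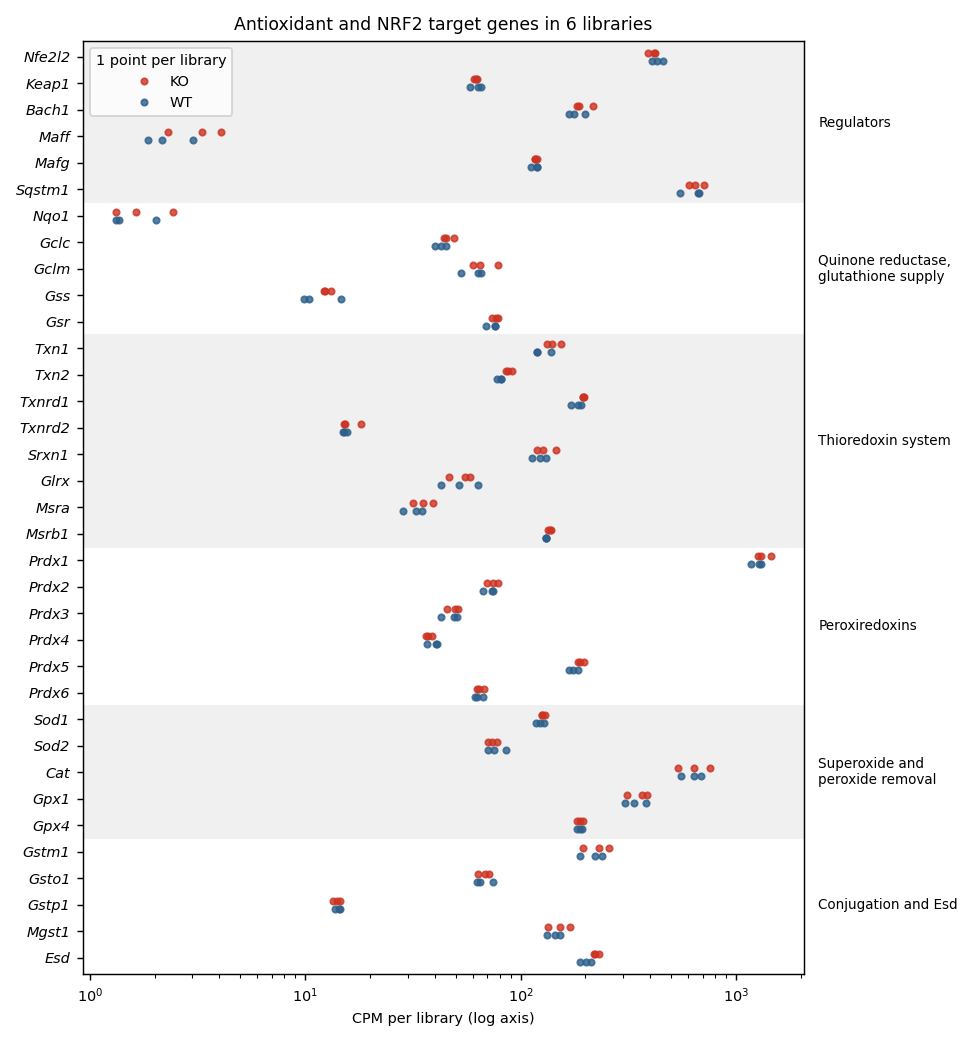
CPM (horizontal log axis) of each of the 35 genes in every library, red for KO and blue for WT, grouped by role. The genotypes lie on top of each other for most genes; the KO points are all to the right of the WT points for Txn2, Txnrd1, Msrb1, Prdx5 and Esd.

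The thioredoxin system (2 of its 8 genes at an unadjusted p under 0.05) held 3 of the 5 genes without overlap. Of all tested genes, 3.1% reached that p in edgeR and 8.65% had no overlap. All 8 members of the system had log2 fold changes above 0, with a median of 0.10 and none past the threshold. Txn1, cytosolic thioredoxin (chromosome 4, 57943373 to 57956411), which passes electrons to peroxiredoxins, was at 132, 141 and 154 CPM in KO and at 120, 120 and 139 CPM in WT. KO 1 lay between the WT values, so that the groups overlapped (log2 fold change 0.17, 95% interval 0.004 to 0.34, unadjusted p = 0.0456, edgeR adjusted p = 0.999949). Txn2, the mitochondrial form (chromosome 15, 77915051 to 77928994), was at 91.1, 86.0 and 87.7 CPM in KO and at 77.6, 81.3 and 81.3 CPM in WT. Every KO library exceeded every WT library, at 110% of the WT level (log2 fold change 0.14, 95% interval 0.01 to 0.27, unadjusted p = 0.0325, edgeR adjusted p = 0.999949). Over the 16 alternatives Txn2 ran from 0.12 to 0.16 and Txn1 from 0.11 to 0.25, with smallest adjusted p of 0.913 and 0.910.

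Txnrd1 (chromosome 10, 82833951 to 82897724) reduces thioredoxin in the cytosol and is a selenoprotein. It stood at 195, 196 and 195 CPM in KO and at 191, 171 and 186 CPM in WT. The KO libraries were nearly identical, with a standard deviation of 0.735 CPM against 10.4 CPM in WT, and lay above all WT libraries (log2 fold change 0.10, 95% interval -0.03 to 0.22, edgeR adjusted p = 0.999949). The mitochondrial Txnrd2 was far lower, the Txnrd1 level per kb being 10.3 ± 0.993 times that of Txnrd2 in KO and 10.1 ± 0.604 times in WT (SD, n = 3). Txnrd1 overlaps 2 other RefSeq genes, among them Eid3, so its count may include reads of those genes.

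Msra, which repairs one stereoisomer of oxidised methionine, was at 31.7, 35.2 and 39.0 CPM in KO and at 32.9, 28.6 and 34.97 CPM in WT, with overlap (log2 fold change 0.14, standard error 0.10). Msrb1, the selenoprotein that repairs the other stereoisomer, had the smallest spread of the 35 genes. It had 137 ± 2.14 CPM for KO and 131 ± 0.424 CPM for WT (SD, n = 3), with no overlap and a log2 fold change of 0.06 (edgeR adjusted p = 0.999949). Srxn1, sulfiredoxin, which rescues over-oxidised peroxiredoxins and whose promoter is shown above, had 0.09 with overlap, as KO 1 and KO 2 lay at 119 and 127 CPM and WT 1 at 132 CPM. Glrx, a glutaredoxin, had 0.02 and the wide range from 42.7 CPM in WT 2 to 63.4 CPM in WT 3.

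Most peroxiredoxins use thioredoxin to reduce peroxides. Of the 6 genes here, 5 had log2 fold changes above 0 (median 0.05). Prdx1 (chromosome 4, 116685599 to 116700000), cytosolic and with a match to both motifs in its promoter window, was the most abundant of all members per length. It was at 1258, 1299 and 1457 CPM in KO and at 1306, 1170 and 1278 CPM in WT. KO 3 was the highest library, KO 1 lay below WT 3, and the groups overlapped (log2 fold change 0.10, 95% interval -0.06 to 0.26). Prdx5 (chromosome 19, 6906697 to 6910106), found in mitochondria, peroxisomes and cytosol, was at 198, 189 and 186 CPM in KO and at 168, 175 and 184 CPM in WT. Its groups were apart, though KO 3 and WT 3 nearly met (log2 fold change 0.12, standard error 0.06, edgeR adjusted p = 0.999949). Prdx5 overlaps Trmt112, the gene of a cofactor of several methyltransferases, so part of its count could come from that gene.

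The remaining peroxiredoxins differed less. Prdx2 and the mitochondrial Prdx3 had log2 fold changes of 0.06 and 0.04, Prdx6 had 0.03, and the secretory pathway form Prdx4 had -0.07. In each of them the genotypes overlapped. Prdx6 has an intronless copy elsewhere in the mouse genome, and reads shared with it are uncertain.

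Of the 5 enzymes that remove superoxide and peroxides, Gpx1, Cat, Sod1 and Gpx4 were among the 8 highest of the 35 genes per kb of merged exons, and Sod2 ranked 30 at 12.6 CPM per kb in KO and 13.2 in WT. None of the 5 was called, and their log2 fold changes ran from -0.06 to 0.06. Sod1, the cytosolic superoxide dismutase, was at 129, 125 and 126 CPM in KO and at 128, 118 and 123 CPM in WT, with overlap and a log2 fold change of 0.04. Its mitochondrial counterpart Sod2 had -0.06 and was highest in WT 2 at 85.8 CPM. Cat, the peroxisomal catalase, was at 757, 638 and 535 CPM in KO and at 641, 691 and 556 CPM in WT. Both the highest and the lowest Cat value were KO libraries, and the standard deviations were 111 CPM for KO and 68.2 CPM for WT. Its log2 fold change was 0.03, and -0.10 without KO 1.

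Gpx1, the main cytosolic glutathione peroxidase, was at 313, 387 and 367 CPM in KO and at 337, 304 and 383 CPM in WT. Its low libraries were KO 1 and WT 2, the same libraries in which Cat was highest, and the log2 fold change was 0.06 (standard error 0.10). Gpx4, which reduces lipid peroxides in membranes and restrains ferroptosis, had 188 ± 6.16 CPM for KO and 187 ± 4.84 CPM for WT (SD, n = 3). Its log2 fold change was 0.01 with a 95% interval from -0.11 to 0.13, so a change of Gpx4 beyond 1.5-fold lay outside the interval. Both enzymes are selenoproteins.

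Of the conjugating enzymes and Esd, Esd had the smallest unadjusted p of all 35 genes. Esd encodes esterase D, which hydrolyses S-formylglutathione, a product of the glutathione adduct of formaldehyde. The gene lies at chromosome 14, 74732151 to 74750765. It was at 223, 218 and 232 CPM in KO and at 201, 189 and 212 CPM in WT, so that every KO library lay above every WT library. KO stood at 112% of WT (log2 fold change 0.16, standard error 0.06, 95% interval 0.03 to 0.29, unadjusted p = 0.0198, edgeR adjusted p = 0.999949). In 12 of the 16 alternatives its unadjusted p was under 0.05, its log2 fold change ran from 0.12 to 0.20, and its smallest adjusted p was 0.910.

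Gstm1 and Gstp1, cytosolic glutathione transferases, had log2 fold changes of 0.08 and -0.02, and both have close paralogs with which reads may be shared. Gstp1, with TGANTCAGC in its promoter window, was even at 14.0 ± 0.497 CPM for KO and 14.2 ± 0.389 CPM for WT (SD, n = 3). Mgst1, the microsomal transferase, and Gsto1, an omega class transferase, had 0.09 and 0.01. Gstm1 and Mgst1 were both highest in KO 1, at 258 and 170 CPM, and lowest in WT 3, at 189 and 132 CPM.

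**Figure D3:**
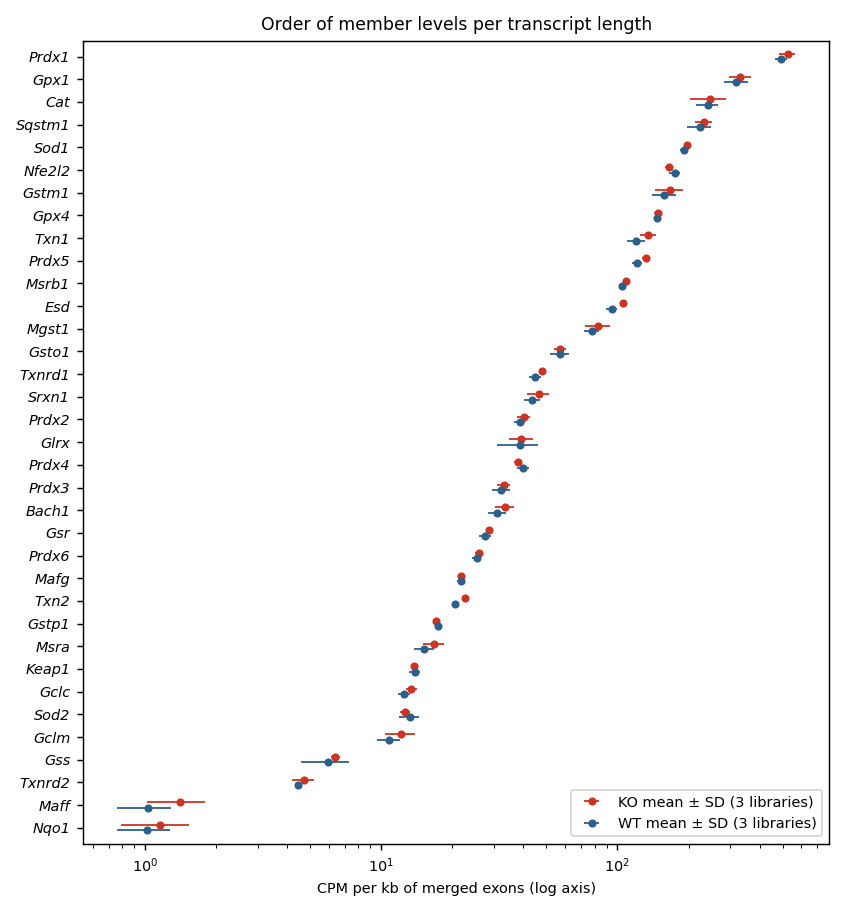
Mean level per kb of merged exons (log axis) of each of the 35 genes, ordered by the mean over all libraries, with KO in red, WT in blue and bars for the SD of 3 libraries. Prdx1, Gpx1, Cat, Sqstm1 and Sod1 stand at the top and Maff and Nqo1 at the bottom.

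The order of the levels spanned a 468-fold range per kb of merged exons. Prdx1 led at 526 CPM per kb in KO and 492 in WT, followed by Gpx1 at 332 and 319, Cat at 246 and 241, Sqstm1 at 232 and 223, and Sod1 at 198 and 192. Cat and Sqstm1 did not differ from each other beyond their spread, and neither did the next genes in order, Nfe2l2 and Gstm1. The transcription factor Nfe2l2 thus ranked with abundant enzymes, at 165 CPM per kb in KO and 175 in WT. The glutathione ligase subunits stood low, at 13.4 and 12.5 CPM per kb for Gclc and 12.1 and 10.8 for Gclm in KO and WT. At the end of the order Maff was at 1.41 CPM per kb in KO and Nqo1 at 1.16, a pair that did not differ beyond their spread either.

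Together the 35 genes made up 0.640%, 0.623% and 0.619% of the scaled counts in KO 1 to KO 3 and 0.611%, 0.601% and 0.590% in WT 1 to WT 3. Each KO sum was above each WT sum, a difference that was not tested. The most abundant genes weigh most in such a sum. Prdx1, whose groups overlapped, alone had means of 1338 CPM in KO and 1251 CPM in WT. Libraries of a genotype did not behave alike. KO 1 was the highest of the 6 libraries for 12 genes and the lowest for 0, whereas WT 2 was the lowest for 14 and the highest for 3. Among the 8443 genes above that level of 10 CPM, KO 1 was highest for 21.4% and WT 2 was lowest for 17.6%.

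Averages by role are given as a description, and no test compared the roles. On the log2(CPM + 0.5) scale, the 5 genes of quinone and glutathione supply averaged 0.19 above their 6-library mean in KO 1, where Nqo1 was at 0.45 and Gclm at 0.30 but Gss at 0.02 and Gsr at 0.04. Their average of 0.12 in WT 1 came mostly from Gss at 0.28 and Nqo1 at 0.24, with Gclc, Gclm and Gsr at 0.03, 0.03 and 0.02. The thioredoxin system genes averaged -0.14 in WT 2, -0.03 in KO 1 and 0.11 in KO 3. KO 1 and WT 2, and KO 3 and WT 3, were also the libraries at the ends of the cell cycle marker sums given above, and the part of cell cycle or neutrophil content in the antioxidant levels was not tested. Between libraries of a genotype the coefficient of variation had a median of 7.58% over the 35 genes, running from 1.13% for Msrb1 to 28.8% for Nqo1, against 6.66% over genes of at least 10 CPM.

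**Figure D4:**
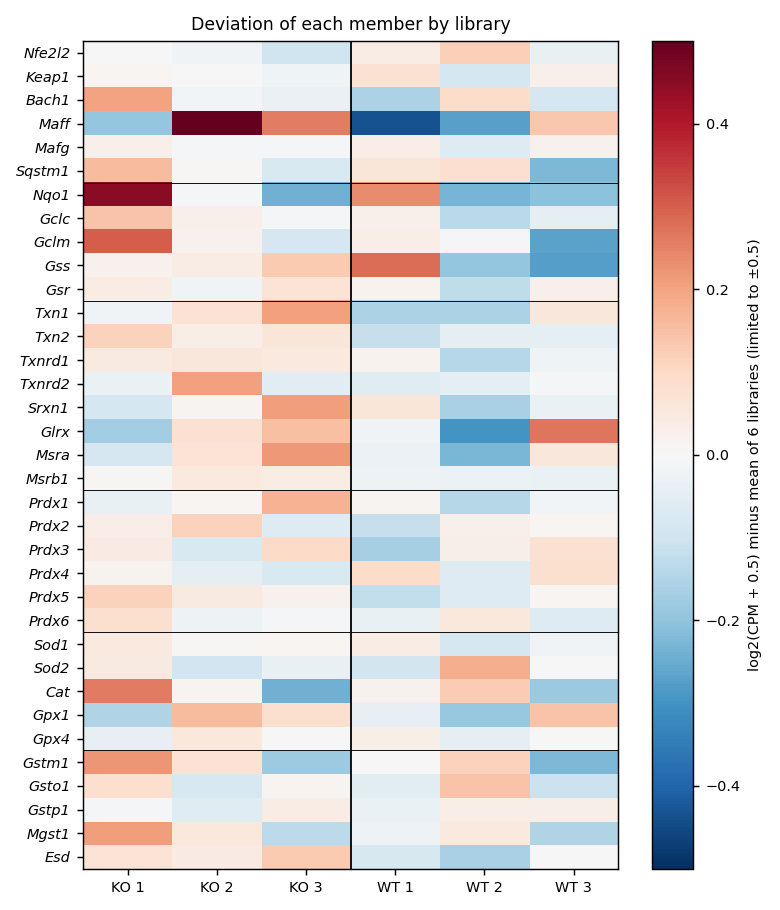
Deviation of each of the 35 genes (rows, grouped by role) from its own mean over 6 libraries (columns), on the log2(CPM + 0.5) scale, with red above and blue below. WT 2 is mostly below the mean (12 of 35 genes above it) and KO 1 mostly above (24 of 35). Maff, Txn1, Txnrd2, Srxn1, Glrx, Msra, Prdx1, Gpx1 and Gpx4 are below in both KO 1 and WT 2.

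Other genes of the pathway were compared in the same way. Of 75 further NRF2 pathway and antioxidant genes 70 were tested, and 0 passed in either direction, with 47 above 0, 23 below 0 and 0.05 as the median log2 fold change. At an unadjusted edgeR p under 0.05 there were 2 of the 70, Taldo1 and Hmox1, where 3.1% of all tested genes reached that level. The KO and WT libraries did not overlap for Taldo1, Ftl1, Gstt1 and Idh1, higher in KO, and for Hmox2, lower in KO. These were 4 and 1 of the 70, where 8.65% of all tested genes had no overlap in either direction. Taldo1, transaldolase of the pentose phosphate pathway that feeds NADPH to glutathione reductase, was at 240, 236 and 230 CPM in KO and at 211, 215 and 216 CPM in WT, with no overlap (log2 fold change 0.14, edgeR adjusted p = 0.999949). Hmox1, haem oxygenase, a shared target of NRF2 and BACH1, was at 1006, 957 and 891 CPM in KO and at 936, 771 and 747 CPM in WT, where WT 1 lay above KO 3. Ugdh and Blvrb, also targets, had 0.16 and 0.13.

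By group, 13 of 19 tested further NRF2 targets were above 0, with a median of 0.08, and 18 of 26 further glutathione genes, with a median of 0.07. Gstt1, a theta class transferase and the glutathione gene with the smallest p, had 0.66 with a standard error of 0.39 and means of 1.20 CPM (KO) and 0.759 CPM (WT). Mgst3, Glrx5 and Gstm5 had 0.17, 0.14 and 0.19. Of 10 further thioredoxin genes 5 were above 0, with a median of -0.01. In that group Sesn3, a sestrin, had 0.27 and Txndc17, Txnl1 and Msrb3 had -0.08, 0.05 and 0.13. Among 9 other antioxidant genes 7 were above 0, including Idh1, which makes cytosolic NADPH, with 0.12 and no overlap, Ccs, the copper chaperone of SOD1, with 0.17, and Blvra with 0.08. Hmox2, the constitutive haem oxygenase, had -0.05 with no overlap, lower in KO. Of 6 further parts of the KEAP1 and NRF2 machinery 5 had intervals within 1.5-fold, among them Cul3, Nfe2l1 and Rbx1 at 0.05, 0.04 and 0.06. The exception was Bach2, a repressor that binds with small MAF proteins, at -0.16 with a 95% interval from -0.62 to 0.30.

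Genes that make oxidants were examined beside those that remove them. Of 8 tested, 0 passed, 3 were above 0 and 5 below, with a median of -0.03 and 0 at an unadjusted p under 0.05. Ncf1, a cytosolic subunit of the phagocyte NADPH oxidase, was at 471, 477 and 409 CPM in KO and at 511, 508 and 478 CPM in WT. Ncf4, another such subunit, was at 128, 137 and 132 CPM in KO and at 139, 146 and 142 CPM in WT. For both, all KO libraries lay below all WT libraries, with log2 fold changes of -0.14 and -0.10 and adjusted p = 0.999949 in edgeR. These 2 of the 8 genes were the only ones without overlap, which held for 8.65% of all tested genes. Cybb, the catalytic subunit, had -0.06 with overlap, and Cybc1, its chaperone, had 0.13.

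Selenoprotein genes, which include Gpx1, Gpx4, Txnrd1, Txnrd2 and Msrb1 of the 35, held no member that passed either. Of 20 tested, 12 were above 0 and 8 below, with a median of 0.01. An unadjusted edgeR p under 0.05 was found for 2 of the 20, beside 3.1% of all tested genes. The genotypes did not overlap for 4 of the 20 with higher values in KO (Selenow, Txnrd1, Selenof and Msrb1). The same held for 1 with lower values (Dio2), where 8.65% of all tested genes had no overlap in either direction. Dio2, a deiodinase that activates thyroid hormone, was at 9.04, 11.2 and 10.7 CPM in KO and at 16.1, 14.4 and 11.2 CPM in WT, lower in KO with the closest libraries almost equal (log2 fold change -0.43, edgeR adjusted p = 0.999949). Selenok, an endoplasmic reticulum selenoprotein, had -0.21 with overlap, and Selenow had 0.16. The most abundant, Selenop, the plasma carrier of selenium, had 7390 CPM for KO and 7351 CPM for WT. Of the 6 genes for selenocysteine synthesis and insertion 3 were above 0 and 1 had no overlap, beside 8.65% of all tested genes. Trnau1ap, which binds the selenocysteine tRNA, had 0.23 with no overlap and an unadjusted p = 0.0504, and Pstk, Sephs1 and Eefsec had 0.14, -0.04 and 0.05. These are transcript levels, and protein levels were not analysed here.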

How the data were processed

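TRIzol RNA and a VAHTS Universal V6 kit gave the libraries, as the labels' protocols state. The authors deposited raw read counts per gene for 6 libraries. The submitters' processing notes name fastp, HISAT2, HTSeq and build mm10; versions, annotation, strand setting and any gene filter are not stated in the sources used here. All 35 members were matched by Entrez Gene ID to RefSeq GRCm38.p6, and lengths are merged exons of GENCODE M21 basic transcripts. edgeR 4.0.16 (R 4.3.3) was run with TMM, filterByExpr (minimum count 10) and robust quasi-likelihood F tests, adjusted over 12605 genes at 0.05; 95% intervals use the moderated degrees of freedom. CPM use TMM-scaled totals, and 3 counts, a floor for counting error only, equal 0.0730 to 0.0813 CPM. Alternatives used DESeq2 1.42.0, limma 3.58.1, other scalings, filters, a replicate block and left-out libraries. On simulated counts for KO minus WT over 12605 genes the steps recovered 65.2% of 1.5-fold, 78.9% of 2-fold and 93.7% of 4-fold changes, with 12 false calls among 170. Replicate libraries differed beyond sampling noise (chi-square per degree of freedom 11.4 to 34.2). Members and lists were chosen with earlier results of these data known, so the slight upward shift seen before for oxidative stress genes is not independent support here. Values in every library are given for Nfe2l2, Keap1, Bach1, the 10 members with the smallest p and the 5 highest per length, and other lists give up to 4 genes with the smallest p. Other named genes were chosen after their values were seen.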

Additional observations from a re-analysis of the deposited data

How the results depend on the processing

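The count of 0 antioxidant genes called held in all 16 alternatives. The number of all genes called was 4, and it was 16 with DESeq2 and 8 with the replicate block, which called 0 of the 35; the cause was not tested. The correlation of same-numbered deviations was 0.04, -0.19 and 0.36. Libraries of unlike number ran from -0.44 (KO 1 with WT 3) to 0.43 (KO 1 with WT 2), so the numbers gave no sign of pairing. With 3 libraries per genotype such correlations cannot show that the samples were unpaired. With 1 library left out, 23 to 29 genes were above 0 and the median of the 35 ran from 0.04 to 0.08. In the same alternatives the log2 fold change crossed 0 for 15 genes that were not called, and ran from -0.027 to 0.023 for Mafg, -0.036 to 0.11 for Sqstm1, -0.090 to 0.41 for Nqo1, -0.00071 to 0.066 for Prdx6, -0.10 to 0.15 for Cat, -0.021 to 0.18 for Gstm1, -0.043 to 0.084 for Gsto1, -0.0063 to 0.13 for Txnrd2, -0.11 to 0.18 for Glrx, -0.021 to 0.15 for Gpx1, -0.015 to 0.030 for Gpx4, -0.044 to 0.0077 for Gstp1, -0.032 to 0.087 for Prdx3, -0.059 to 0.026 for Keap1 and -0.12 to 0.013 for Sod2. Mafg was -9.78e-05 with upper quartile scaling. Without KO 1 and WT 2 together Mafg was -0.036, Nqo1 -0.197, Glrx -0.0196, Sod1 -0.000288 and Cat -0.0293. Without KO 3 and WT 3 together Keap1 was 0.0106, Gss -0.0309 and Gsto1 -0.0465. Of the 35 genes, Maff and Nqo1 alone had intervals beyond 1.5-fold, with 53 to 162 counts per library and coefficients of variation of 26.5% and 28.8%; the part of depth in this was not tested.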
